A study of Mus musculus with 8 samples.

Results

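The genes described here are 32 genes of glucose use in mouse spinal cord: 3 hexokinases, 7 genes of upper and 6 of lower glycolysis, 5 genes of lactate conversion and transport, 1 glucose transporter, 4 genes of the pyruvate dehydrogenase step and 6 genes of glycogen metabolism. They were taken from a named list, out of 37074 gene names on the array, and each was read from its probe with the highest mean signal over the 8 arrays. All 32 were well above background on all 8 arrays, and they are therefore all among the 25905 genes tested. RNA labelled as coming from astrocytes, with spinal cord as the tissue, was measured on 8 single-colour Agilent arrays, 1 for each group. The study concerns an oligodendroglial conditional knockout of connexin 47 (Cx47, a gap junction protein that joins oligodendrocytes to astrocytes) in experimental autoimmune encephalomyelitis (EAE), the mouse model of multiple sclerosis. All animals were of the strain C57Bl/6J. The groups were Cx47-deficient mice with EAE, with EAE and iguratimod (an anti-inflammatory drug), in the chronic phase of EAE and naive, and wild-type (WT) mice in the same 4 conditions. Sample titles give icKO for Cx47-deficient mice and FL or F/F for the mice called WT here, without explaining these terms. The genotypes of the naive pair were read from the titles. The Cre driver, the time of deletion, the dose of iguratimod, the ages and the number of animals behind an array are not given in the sources used here.

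Glycolysis splits glucose into pyruvate and starts with phosphorylation of glucose by a hexokinase. Pyruvate is turned into lactate by lactate dehydrogenase or enters the mitochondrial citric acid cycle through pyruvate dehydrogenase, which the Pdk kinases inhibit. In the central nervous system astrocytes hold most of the glycogen, which phosphorylases break down, and lactate passes between cells through monocarboxylate transporters.

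The 32 genes differed little between acute EAE and naive mice and more in the chronic phase. Hexokinase 3 (Hk3) and the lactate exporter Slc16a3 were the only members with both EAE arrays above both naive arrays, which held for 13.5% of all genes. Brain glycogen phosphorylase (Pygb) was 2.53-fold lower in chronic EAE than in naive mice. It was the 1 member to pass the test there (limma adjusted p = 0.0486), as 0.857% of all genes did. The pass was lost with quantile normalization, with the authors' values and without a filter on dim probes. No other condition shared a slide with the chronic one, so phase and slide cannot be separated in this difference. Most of the bright glycolytic enzymes were lower on both chronic arrays by modest amounts, as bright genes were on these arrays in general. Where a transcript had several probes, the most upstream one mostly had a lower chronic difference from naive than the most downstream one. Values below are log2 levels, where 0 is the 75th percentile of an array's signal, so a step of 1 is a 2-fold difference. Levels of different genes come from different probes and were not set against each other.

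**Figure D1:**
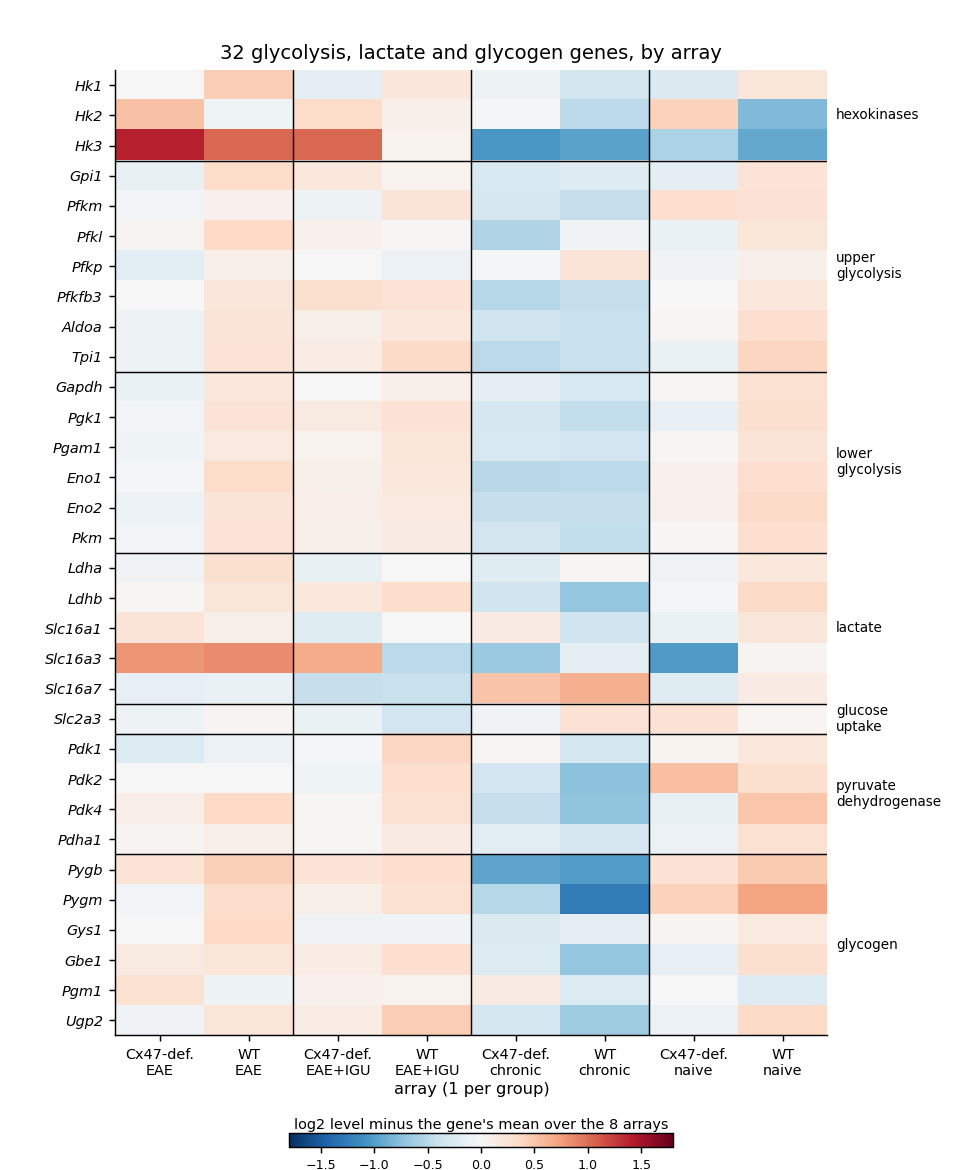
Log2 level of each of the 32 genes (down the page, grouped by role) on each of the 8 arrays (across), minus that gene's mean over the 8 arrays; red is above the mean and blue below it, and black lines part the roles and the conditions. Hk3 and Slc16a3 stand out on the EAE arrays, and Pygb and Pygm on the chronic ones.

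With 1 array in each group, the fit was additive over condition and genotype with limma, and its error reflects how unevenly the genotypes differed from one condition to the next. Such p-values measure only the spread between these arrays, which may be technical, since the labels do not say that they came from separate animals. Signal was well above background for 59.7% to 72.0% of the spots, depending on the array. Slide 1 held 6 arrays and slide 2 held both chronic ones, so chronic disease and slide cannot be told apart. Both chronic arrays had a spike-in slope of 0.76, against 0.92 to 1.07 elsewhere, and a median local background of 58 (Cx47-deficient) and 57 (WT), against 73 to 82 elsewhere. Astrocyte markers (10 of 10) were well above background on every array, but so were all 9 neuronal, all 8 oligodendrocyte and all 6 microglial markers, so the RNA was not that of astrocytes alone. In such bulk RNA fewer cells of a type and less RNA per cell cannot be told apart.

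Hk3, Pygb and the muscle glycogen phosphorylase Pygm each have a second probe well above background on all arrays. These probes lie upstream of the first and read through an open frame, and they are shown because the position of a probe along the transcript bears on the chronic values below. Positions are on the mm9 build, and bases in capitals are the longest run that the Pygb and Pygm probes share, 8 bases, the Hk3 probe having none marked. The Hk3 probe lies at chr13:55107900-55107959 on the minus strand. The Pygb probe lies at chr2:150655410-150656136 on the plus strand and the Pygm probe at chr19:6397893-6398064 on the plus strand, and both span more than their 60 bases of the genome, so each crosses an intron.
Hk3: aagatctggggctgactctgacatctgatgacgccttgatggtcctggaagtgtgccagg
Pygb: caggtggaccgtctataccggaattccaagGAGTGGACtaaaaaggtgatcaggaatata
Pygm: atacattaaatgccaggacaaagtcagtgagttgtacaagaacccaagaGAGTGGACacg

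The first comparison asks what acute EAE did to these genes in either genotype. No member passed the test against naive mice, where 0.251% of all genes did (65 of 25905). At an unadjusted p under 0.05 there was 1 member, Hk3, against 7.16% of all genes. Both EAE arrays lay above both naive arrays for 2 of 32 members, Hk3 and Slc16a3, and for 13.5% of all genes. The median difference of the 32 genes was -0.03, beside -0.06 over all genes tested. Above 0 lay 13 members and below it 19, as did 59.5% of all genes.

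Hk3 encodes a hexokinase known mainly from blood and myeloid cells. Its log2 levels were 0.49 in Cx47-deficient and 0.11 in WT EAE, 0.12 in Cx47-deficient and -0.85 in WT EAE with iguratimod, -1.97 in Cx47-deficient and -1.88 in WT chronic EAE, and -1.49 in Cx47-deficient and -1.83 in WT naive mice. The 4 acute EAE arrays, treated or not, were thus the 4 highest, with no overlap with the chronic or naive arrays. EAE exceeded naive by 1.96 ± 0.28 (SE), a 3.89-fold difference of nearly the same size in Cx47-deficient (1.98) and WT mice (1.94). It did not pass the test in the fit (limma adjusted p = 0.0833), but it did with median centring, with normexp background correction and with genes limited to those well above background on all 8 arrays (adjusted p = 0.0312, 0.0316 and 0.0385). The settings where it passed also called more genes in general than the fit did. It did not pass with quantile normalization, with the authors' values, without a filter or on slide 1 alone. The second Hk3 probe, shown above, read -1.65 and -2.11 in Cx47-deficient and WT EAE, -1.96 and -2.83 in Cx47-deficient and WT EAE with iguratimod, -3.91 and -3.60 in Cx47-deficient and WT chronic EAE, and -4.13 and -3.65 in Cx47-deficient and WT naive mice. It has the same 4 arrays on top.

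Slc16a3 encodes MCT4, a low-affinity monocarboxylate transporter that exports lactate from glycolytic cells. Its log2 levels were -0.57 in Cx47-deficient and -0.51 in WT EAE, -0.69 in Cx47-deficient and -1.85 in WT EAE with iguratimod, -2.04 in Cx47-deficient and -1.54 in WT chronic EAE, and -2.38 in Cx47-deficient and -1.31 in WT naive mice. Both untreated EAE arrays and the Cx47-deficient iguratimod array were high, and the WT iguratimod array lay within the range of the chronic and naive arrays. The EAE difference from naive was 1.31 ± 0.53 (limma adjusted p = 0.736), and it was 1.81 in Cx47-deficient and 0.80 in WT mice. Only 1 probe of Slc16a3 was above background, at chr11:120820023-120820082 (mm9, plus strand).

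**Figure D2:**
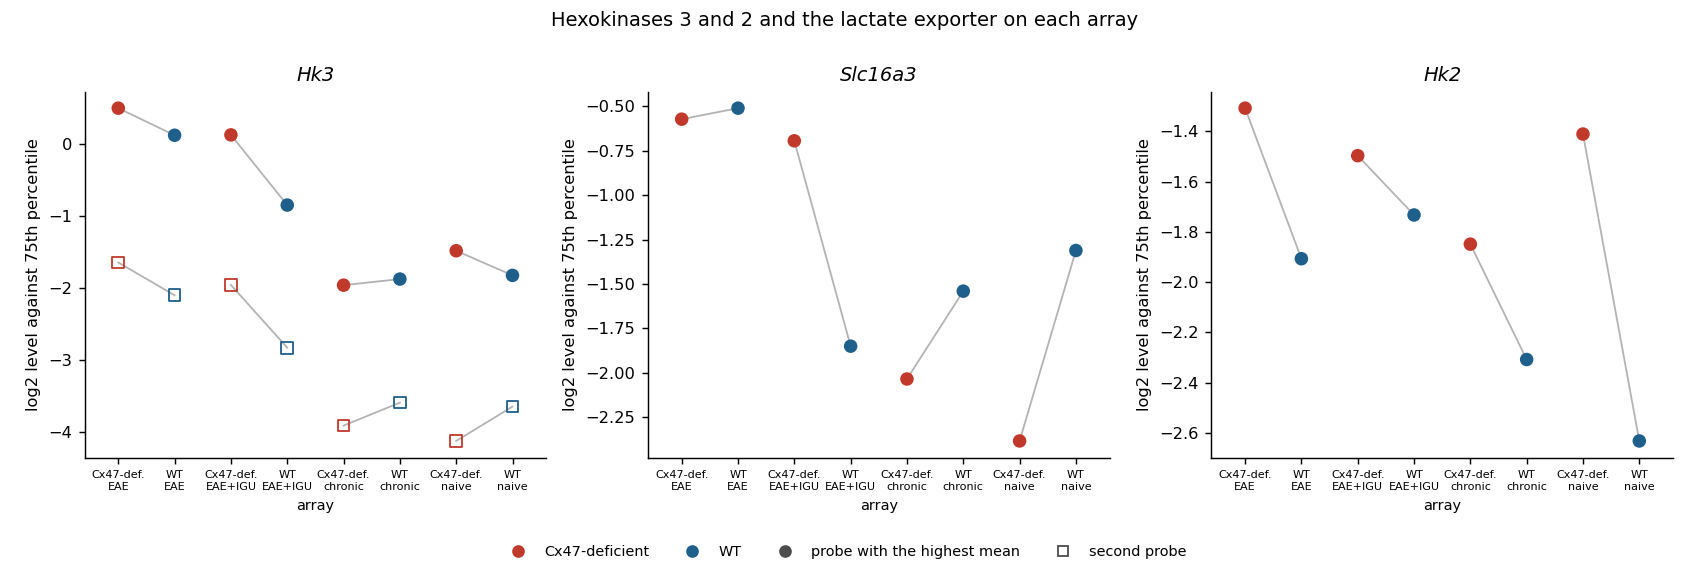
Log2 level against the array's 75th percentile (y axis) of Hk3, Slc16a3 and Hk2 on each array (x axis), red for Cx47-deficient and blue for WT, with grey lines joining the pair of a condition; filled circles are the probe with the highest mean and open squares the second Hk3 probe. For Hk3 all 4 EAE arrays, treated or not, lie above the chronic and naive arrays on both probes.

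Most markers of infiltrating cells were also high on EAE arrays. The summed level of 8 infiltrating myeloid markers, in multiples of an array's 75th percentile, was 121.1 in Cx47-deficient and 76.3 in WT EAE, 94.3 in Cx47-deficient and 61.6 in WT EAE with iguratimod, 69.2 in Cx47-deficient and 72.2 in WT chronic EAE, and 47.0 in Cx47-deficient and 44.2 in WT naive mice. The median EAE difference of that list was 2.21, with 6 of 8 above 0, while Ptprc and Itgam were lower in EAE than in naive mice of either genotype. None of the 8 passed the test, and in WT naive mice Ccr2 and Arg1 were not well above background. The neutrophil markers (6) had a median of 2.90, with S100a9 passing, and Ngp was not well above background in naive mice of either genotype, nor Mmp8 in WT ones. Endothelial markers had a median of 2.41 (6 of 6), with none passing. The summed level of 7 T and NK cell markers was 3.91 in Cx47-deficient and 3.3 in WT EAE, against 1.21 in Cx47-deficient and 2.1 in WT naive mice, where Cd3g, Cd2, Cd8a and Nkg7 were not well above background, and none of the 6 tested passed. Microglial sums were 112.2 and 102.5 in Cx47-deficient and WT EAE and 92.9 and 92.8 in Cx47-deficient and WT naive mice. The part of these cells in the Hk3 and Slc16a3 levels was not tested.

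The other hexokinases differed less. Hk1, the main brain hexokinase, had levels of 5.42 to 6.18 over the 8 arrays and an EAE difference of 0.24. Hk2, an inducible hexokinase of muscle, fat and stressed cells, had an EAE difference of 0.41, with 0.10 in Cx47-deficient and 0.73 in WT mice. The neuronal glucose transporter Slc2a3 (GLUT3) ranged from 2.27 to 2.87, with an EAE difference of -0.17. Among the glycolytic enzymes from Gpi1 to Pkm, among lactate dehydrogenases Ldha and Ldhb, and among the glycogen genes, no EAE difference passed the test, and the largest in size was that of Pygm, -0.42.

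The second comparison concerns iguratimod. Between treated and untreated EAE 0% of all genes passed the test (0 of 25905), and hence no member did. At an unadjusted p under 0.05 there were 546 genes (2.11%) and 0 of the 32. The median difference was 0.01 for the 32 genes and -0.01 over all genes. Hk3 and Slc16a3 were the 2 members with the largest differences, -0.67 ± 0.28 and -0.73 ± 0.53. The Hk3 difference was -0.37 in Cx47-deficient and -0.97 in WT mice. The Slc16a3 difference was -0.12 in Cx47-deficient and -1.34 in WT mice. The difference between the genotypes could not be tested with 1 array in each group, and without the WT iguratimod array the Slc16a3 difference turned to 0.12.

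The third comparison sets iguratimod-treated EAE against naive mice and shares the iguratimod and naive arrays with the 2 before it. Here 0.00386% of genes passed (1 of 25905) and no member. At an unadjusted p under 0.05 there was again 1 member, Hk3, against 7.47% of all genes. Hk3 differed by 1.29 ± 0.28 (limma adjusted p = 0.265). It was 1.61 higher in Cx47-deficient and 0.98 higher in WT treated mice than in naive mice of the same genotype. Slc16a3 differed by 0.58 ± 0.53. The lowest differences among the members were those of Slc2a3 (-0.38), Slc16a7 (-0.37) and Pygm (-0.37).

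In the chronic phase the 32 genes stood lower. Their median difference from naive mice was -0.41, beside 0.03 over all genes. Below 0 lay 28 members and 48.1% of all genes, and 4 members lay above. A gene was tested if well above background on 2 or more arrays, so dim genes could enter through the chronic arrays alone. Over genes well above background on all 8 arrays, as all 32 members were, the median was -0.097. One member, Pygb, passed the test, where 0.857% of all genes did (222 of 25905). At an unadjusted p under 0.05, 13 members were lower, against 13.7% of all genes, and 1 was higher, against 18.9% of all genes. Both chronic arrays lay below all 6 other arrays for 21 of 32 members and for 24.4% of all genes.

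Brightness has to be read beside these counts. Over all genes the chronic difference from naive went with level: its median was 0.80 among the 6057 genes dimmer than -4, -0.11 among genes between 0 and 2, -0.24 between 2 and 4, and -0.41 both between 4 and 6 and above 6. In these 2 brightest ranges 83.3% and 80.0% of all genes lay below 0, and the 13 members there had medians of -0.57 and -0.50. The 8 members between 0 and 2, which include Pygb and Pygm, had a median of -0.55 where all genes had -0.11, and the 5 between 2 and 4 had -0.27 where all genes had -0.24. After quantile normalization, which gives every array the same distribution, the median of the 32 was -0.30, beside -0.03 over all genes, with 26 of them below 0. The part of the spike-in slope and of the slide in these values was not tested.

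Position along the transcript went with the chronic difference too. For 12 members a RefSeq transcript had separate probes well above background on all 8 arrays, and in 10 of them the most upstream probe, nearest the 5′ end, was lower in chronic EAE against naive than the most downstream one. The median difference was -1.11 at the upstream and -0.55 at the downstream probes. Over all 4191 genes with such probes the upstream one was lower in 75.4%, with medians of -0.39 upstream and -0.07 downstream. In EAE against naive that share was 60.3%, with medians of -0.09 upstream and -0.05 downstream. Over the same genes the upstream probe read lower than the downstream one by a median log2 level difference of -2.43 in Cx47-deficient and -2.35 in WT chronic EAE, and of -2.12 to -2.21 on the other 6 arrays. Such a gap can go with RNA quality or labelling. Neither its source nor its part in the chronic differences was tested. Among the members the upstream and downstream values were -1.86 and -0.68 for Eno1, -1.81 and -0.82 for Pkm, -1.22 and -0.16 for Ldha, and -0.997 and -0.57 for Tpi1. Gbe1 (-0.11 upstream and -0.53 downstream) and Hk3 (0.13 and -0.27) were the exceptions.

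**Figure D3:**
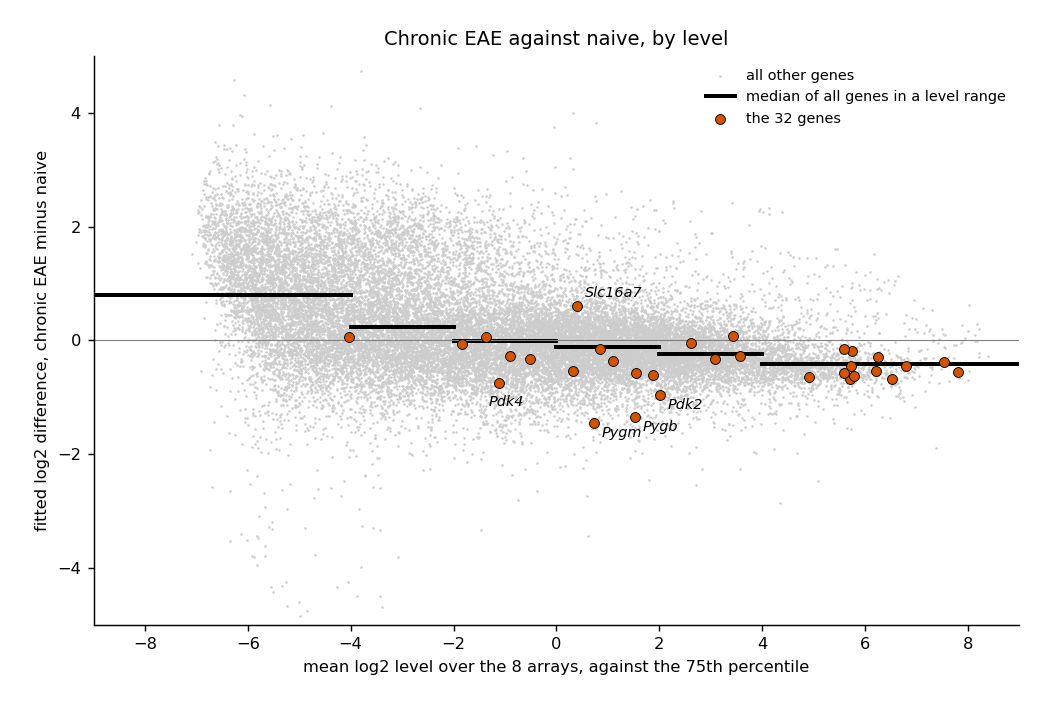
Fitted log2 difference of chronic EAE minus naive (y axis) against mean log2 level over the 8 arrays (x axis), for the 32 genes (orange) and all other genes (grey); black bars are the median of all genes in each range of level, and 22 genes lie outside the axes. The bars step down with level, and Pygb, Pygm and Pdk2 lie below the bar of their range.

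Pygb, brain glycogen phosphorylase, had log2 levels of 1.78 in Cx47-deficient and 1.96 in WT EAE, 1.77 in Cx47-deficient and 1.83 in WT EAE with iguratimod, 0.58 in Cx47-deficient and 0.52 in WT chronic EAE, and 1.78 in Cx47-deficient and 2.0 in WT naive mice. The 6 arrays other than the chronic ones lay close together, and both chronic arrays were well below the lowest of them. Pygb fell by 1.34 ± 0.16 in chronic EAE against naive (limma adjusted p = 0.0486). The second Pygb probe, shown above, read 0.13 and 0.23 in Cx47-deficient and WT EAE, 0.14 and 0.15 in Cx47-deficient and WT EAE with iguratimod, -1.54 and -1.66 in Cx47-deficient and WT chronic EAE, and 0.26 and 0.43 in Cx47-deficient and WT naive mice. Its difference from naive was -1.95, larger than at the downstream probe. Over the other normalizations and filters the Pygb difference was -1.25 to -1.72, but the test was missed after quantile normalization (adjusted p = 0.0527), with the authors' values (0.0536), without a filter on dim probes (0.0687) and whenever any 1 of the 8 arrays was left out (0.065 to 0.28).

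Pygm, the muscle form of glycogen phosphorylase, which astrocytes also express, had levels of 0.69 in Cx47-deficient and 1.06 in WT EAE, 0.84 in Cx47-deficient and 1.01 in WT EAE with iguratimod, 0.23 in Cx47-deficient and -0.52 in WT chronic EAE, and 1.15 in Cx47-deficient and 1.45 in WT naive mice. Both chronic arrays were the lowest, the WT one by far. The difference from naive was -1.44 ± 0.32 (limma adjusted p = 0.0754), with -0.92 in Cx47-deficient and -1.97 in WT mice. The second Pygm probe had its lowest readings on the same arrays, -1.78 in Cx47-deficient and -2.32 in WT chronic EAE, against -0.26 in Cx47-deficient and 0.00 in WT naive mice, and its difference was -1.93. Of 6 markers of skeletal muscle, 4 or 5 were well above background on each array. They summed to between 0.43 and 0.57 on all arrays, and Ckm was not well above background on any of them.

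**Figure D4:**
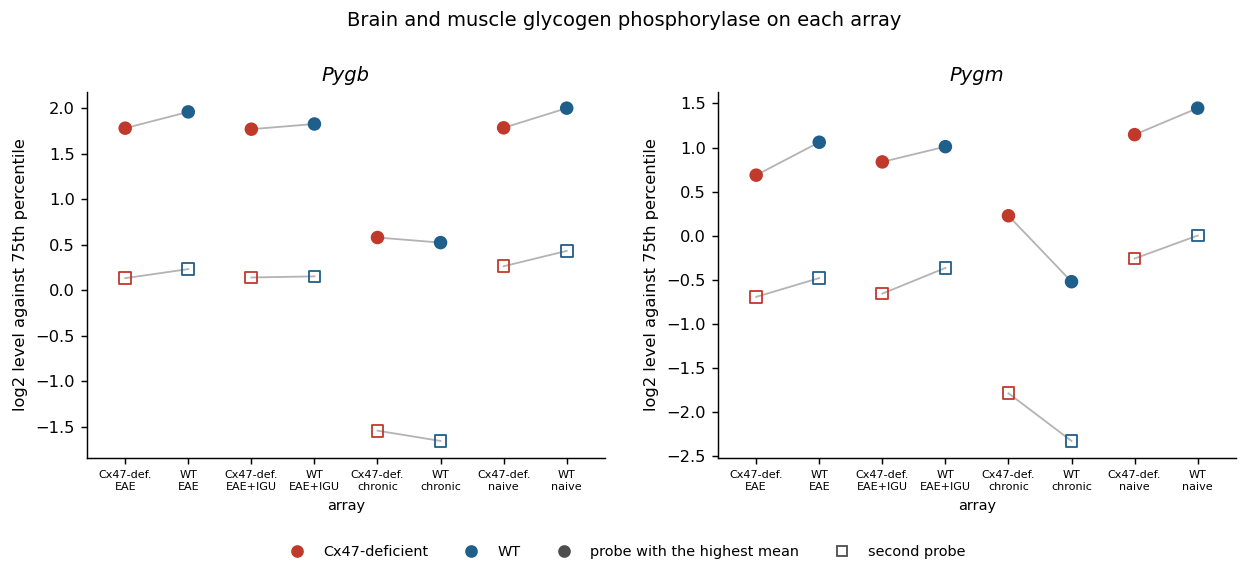
Log2 level against the array's 75th percentile (y axis) of the glycogen phosphorylases Pygb and Pygm on each array (x axis), red for Cx47-deficient and blue for WT, with grey lines joining the pair of a condition; filled circles are the probe with the highest mean and open squares the second probe. Both chronic arrays are the lowest for either gene on either probe.

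The other glycogen genes differed less from naive in chronic EAE. Ugp2, which makes the UDP-glucose used for glycogen, had a difference of -0.60 ± 0.24 (-0.22 in Cx47-deficient and -0.98 in WT mice). The branching enzyme Gbe1 had -0.53 (-0.09 in Cx47-deficient and -0.98 in WT mice), and glycogen synthase Gys1 had -0.33. The phosphoglucomutase named Pgm1 on the array was at 0.07. Its accession is that of the gene now called Pgm2 in RefSeq, and the array's Pgm2 probe, of the gene RefSeq calls Pgm1, read 3.72 in Cx47-deficient and 3.37 in WT chronic EAE and 3.96 in Cx47-deficient and 4.26 in WT naive mice. No glycogen gene but Pygb passed the test.

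Astrocyte and oligodendrocyte markers were low on the same 2 arrays. The 10 astrocyte markers summed to 94.2 in Cx47-deficient and 51.3 in WT chronic EAE and to between 123.1 and 160.6 on the other 6 arrays, and all 10 were below naive, with a median difference of -0.89 and none passing the test. The 8 oligodendrocyte markers summed to 142.1 in Cx47-deficient and 99.6 in WT chronic EAE, against 312.6 in Cx47-deficient and 358.5 in WT naive mice, with a median difference of -2.07 and Mog passing. The 9 neuronal markers summed to 276.5 in Cx47-deficient and 258.8 in WT chronic EAE, against 305.5 in Cx47-deficient and 344.4 in WT naive mice, with a median of -0.32. The part of the cell mixture in the Pygb and Pygm levels was not tested.

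At the pyruvate dehydrogenase step no gene passed the test. Pdk2, a broadly expressed kinase that inhibits the complex, had levels of 2.02 in Cx47-deficient and 2.02 in WT EAE, 1.93 in Cx47-deficient and 2.31 in WT EAE with iguratimod, 1.67 in Cx47-deficient and 1.27 in WT chronic EAE, and 2.55 in Cx47-deficient and 2.30 in WT naive mice. Its chronic arrays were the lowest 2 and its untreated EAE arrays lay between them and the naive ones. The chronic difference from naive was -0.96 ± 0.24 (limma adjusted p = 0.083), and it passed with normexp background correction (adjusted p = 0.0332), a setting that called many more genes in general. With quantile normalization, with the authors' values and without a filter it did not pass. Pdk4, a kinase induced by fasting and fatty acids, differed by -0.75 ± 0.26, with -0.29 in Cx47-deficient and -1.22 in WT mice. Pdha1, the catalytic E1 alpha subunit, differed by -0.33. Pdk1, a kinase known to be induced by hypoxia, had a difference of -0.27 on its brightest probe, which maps to a transcript of its own, while the 4 probes of its RefSeq transcript gave -0.27, 0.36, 0.41 and 1.16.

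In glycolysis itself the median difference was -0.55 over the 7 upper and -0.50 over the 6 lower genes, beside -0.54 over the 4 genes of the pyruvate dehydrogenase step and -0.57 over the 6 glycogen genes. Hk3, Hk1 and Hk2 had chronic differences from naive of -0.27, -0.19 and -0.06, and the glucose transporter Slc2a3 one of -0.04. In upper glycolysis, Pfkm (muscle phosphofructokinase) differed from naive by -0.64 ± 0.19, Pfkfb3 (which makes the activator fructose 2,6-bisphosphate) by -0.57 ± 0.16, Tpi1 (triosephosphate isomerase) by -0.57 and Aldoa (aldolase A) by -0.55. Pfkl (liver phosphofructokinase) and Gpi1 (glucose phosphate isomerase) had differences of -0.35 and -0.29, and Pfkp (platelet phosphofructokinase) one of 0.08. In lower glycolysis, the enolases Eno1 and Eno2 differed by -0.68 ± 0.17 and -0.62 ± 0.18, and pyruvate kinase Pkm by -0.54. Phosphoglycerate kinase Pgk1 and phosphoglycerate mutase Pgam1 had -0.45 and -0.44. Gapdh, the glyceraldehyde phosphate dehydrogenase, had -0.38 on its brightest probe, of which the file places only 8 bases in the genome, and its 6 other probes gave -0.762 to -1.402. Both chronic arrays were the lowest 2 of 8 for all 6 genes of lower glycolysis and for 5 of the 7 of upper glycolysis, the exceptions being Pfkl and Pfkp. Many of these enzymes have processed pseudogenes, whose transcripts a probe may not tell apart.

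Eno1 had the lowest adjusted p of these enzymes. Its brightest probe had levels of 5.68 in Cx47-deficient and 6.04 in WT EAE, 5.82 in Cx47-deficient and 5.90 in WT EAE with iguratimod, 5.22 in Cx47-deficient and 5.23 in WT chronic EAE, and 5.79 in Cx47-deficient and 6.01 in WT naive mice. Both chronic arrays lay below the lowest of the 6 others and next to each other. The 2 other Eno1 probes disagreed, with differences from naive of -1.86 and 1.39, the second on a transcript of its own. None of the 13 genes of upper and lower glycolysis passed the test against naive, with adjusted p-values from limma between 0.0852 for Eno1 and 0.77 for Pfkp.

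Lactate genes differed in direction. Ldhb, the form of lactate dehydrogenase that favours pyruvate, had a chronic difference from naive of -0.68 ± 0.22, with -0.33 in Cx47-deficient and -1.03 in WT mice. Ldha, the form of glycolytic cells, had -0.16 on its brightest probe and -1.22 on the upstream one, and Slc16a3 had 0.06. The widely expressed transporter Slc16a1 (MCT1) had 0.26 in Cx47-deficient and -0.57 in WT mice. Slc16a7, the high-affinity transporter MCT2 known from neurons, was the 1 member higher at an unadjusted p under 0.05, as 18.9% of all genes were. Its levels were 0.26 in Cx47-deficient and 0.29 in WT EAE, 0.00 in both genotypes of EAE with iguratimod, 0.92 in Cx47-deficient and 1.05 in WT chronic EAE, and 0.19 in Cx47-deficient and 0.56 in WT naive mice. Both chronic arrays were the highest, by 0.61 ± 0.18 over naive (limma adjusted p = 0.098), and the 2 probes of the RefSeq transcript gave 0.15 and 0.22.

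Chronic against acute EAE, a comparison that shares its arrays with those above, called 2 members, Hk3 and Pygb, both lower, where 14.5% of all genes were called (3755 of 25905). At an unadjusted p under 0.05, 13 members were lower, against 18.1% of all genes. The median of the 32 was -0.47, beside 0.02 over all genes and -0.1 over genes well above background on all 8 arrays. Hk3 fell by 2.23 ± 0.28 in chronic EAE against EAE (limma adjusted p = 0.0325), a level 4.68-fold lower. Pygb fell by 1.32 ± 0.16 (adjusted p = 0.0325), 2.49-fold lower. Slc16a7 was 0.71 ± 0.18 higher (adjusted p = 0.0536), and Pygm and Slc16a3 differed by -1.02 ± 0.32 and -1.25 ± 0.53 (adjusted p = 0.08 and 0.144). The Hk3 call was lost without either EAE array or either chronic array (adjusted p = 0.0538 to 0.208), and the Pygb call without either EAE array, either iguratimod array or the WT chronic array (0.052 to 0.23).

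Cell markers differed between the same arrays. Of 10 astrocyte markers Gfap and Gja1 fell in chronic EAE against EAE, with differences of -2.70 and -1.16. Of 8 infiltrating myeloid markers Lyz2, Ly6c2 and Fcgr1 fell (-2.90, -2.82 and -2.31), and Ptprc and Itgam rose (2.07 and 0.71). The oligodendrocyte markers Mbp, Mog and Cnp fell (-1.959, -1.403 and -1.199), as did the neutrophil markers S100a8 and S100a9 (-1.92 and -1.81), the T and NK cell marker Nkg7 (-2.35) and the endothelial marker Ly6c1 (-2.82). Their part in the Hk3 and Pygb calls was not tested.

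The last comparison is that of genotype. Over all 4 conditions 0% of genes passed the test (0 of 25905), and hence no member. At an unadjusted p under 0.05 there were 1147 genes (4.43%) and 1 member, Hk2. The median difference of Cx47-deficient from WT was -0.13 for the 32 genes and 0.00 over all genes. Below 0 lay 27 members and 50.3% of all genes. This too went with level: over all genes the median was 0.20 among the dimmest and -0.12 among the brightest, where the 6 brightest members had -0.15. After quantile normalization the members' median was -0.04, with 21 of 32 below 0.

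Hk2 had log2 levels of -1.31 in Cx47-deficient and -1.91 in WT EAE, -1.50 in Cx47-deficient and -1.73 in WT EAE with iguratimod, -1.85 in Cx47-deficient and -2.31 in WT chronic EAE, and -1.41 in Cx47-deficient and -2.63 in WT naive mice. It was higher in Cx47-deficient mice in all 4 conditions, by 0.63 ± 0.19 in the fit, and it did not pass the test (limma adjusted p = 0.83). The naive pair had the largest of the 4 differences, 1.22. Hk2 and the gene named Pgm1 on the array, Pgm2 in RefSeq, were higher in Cx47-deficient mice in all 4 pairs, which held for 4.78% of all genes. With iguratimod the latter was higher by only 0.005. The array's Pgm2 probe, of the gene RefSeq calls Pgm1, differed by -0.139 over all conditions. Tpi1, Eno1, Ldha and Slc16a7 were lower in all 4 pairs, which held for 5.6% of all genes. Some of these pair differences were close to 0: -0.028 in EAE and -0.005 with iguratimod for Slc16a7, and -0.01 in chronic EAE for Eno1. The largest of these lower differences in the fit was that of Tpi1, -0.29 ± 0.13.

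Pair by pair, the Cx47-deficient array was lower for 26 of 32 members in naive mice, 28 in EAE, 22 under iguratimod and 12 in the chronic phase. Of all genes compared, 54.5%, 53.5%, 54% and 47.1% were lower in the same conditions. In the fit over all conditions 84.9% of all genes between 4 and 6 and 87.6% of those above 6 were lower in Cx47-deficient mice. Differences of at least 2-fold between 2 single arrays have no replicate error. In naive mice 2 members reached that size, Hk2 and Slc16a3 (-1.07), where 10.7% of all genes compared did. In EAE there was no such member, against 7.4% of all genes. In EAE with iguratimod there was Slc16a3 (1.16), against 4.86% of all genes, with Hk3 just short of it (0.97). In chronic EAE there was none, against 2.91%. Slc16a3 was thus lower in the Cx47-deficient naive array and higher in the Cx47-deficient iguratimod array than in its WT partner, and that change could not be tested with 1 array in each group.

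**Figure D5:**
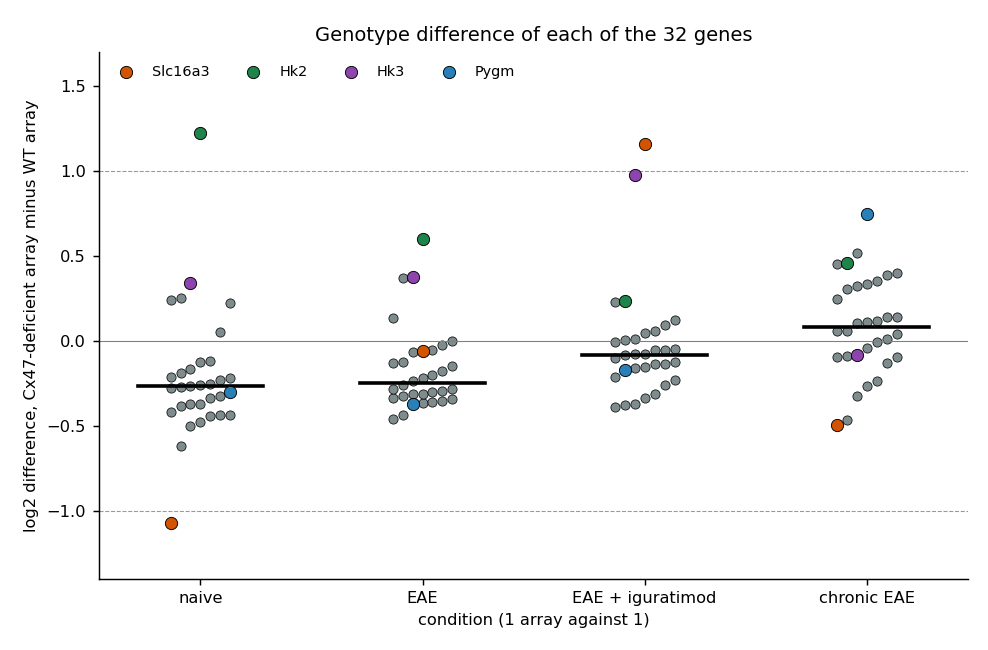
Log2 difference of the Cx47-deficient array minus the WT array (y axis) for each of the 32 genes in each condition (x axis); each point is 1 gene, black bars are the median of the 32, dashed lines mark 2-fold, and Slc16a3, Hk2, Hk3 and Pygm are coloured. The median lies above 0 in chronic EAE and below 0 in the other conditions.

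Other genes of the same pathways gave few calls, all of them in chronic against acute EAE. Among the other glycolysis genes tested (15 of 17 listed), Hkdc1, a hexokinase-like gene, rose in chronic EAE by 0.82. Of 16 other glycogen genes tested, Epm2a, which encodes the glycogen phosphatase laforin, rose by 2.24. Of 8 pentose phosphate genes, Pgd, the enzyme that makes ribulose 5-phosphate and NADPH, fell by 0.82. None of 8 other lactate and pyruvate genes, of 8 other pyruvate dehydrogenase genes or of 17 citric acid cycle genes passed in any comparison. The citric acid cycle genes all lay below 0 in chronic EAE against naive, with a median of -0.45. In EAE against naive, Slc16a4, an orphan member of the monocarboxylate transporter family, had the largest difference of the lactate list, 1.82 (adjusted p = 0.589), and Slc16a8 had 0.66. In the pyruvate dehydrogenase list these were Dlat (-0.23) and Pdhx (-0.22), and in the citric acid cycle list Suclg2 (0.34) and Idh3g (-0.25).

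None of 15 genes known to respond to hypoxia-inducible factors passed in any comparison, with a median of -0.06 in EAE and -0.11 in chronic EAE against naive. The largest differences of that list in EAE were those of Car9 (-1.12 ± 0.91) and Adm (0.74 ± 0.23). Among 8 genes known to respond to PPAR receptors, which govern fat use, Ucp2, Plin2 and Cpt1a fell in chronic against acute EAE by 2.15, 1.71 and 1.19, and none of the 8 lay above 0 there.

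Several members are themselves known hypoxia targets, and their promoters were read for the core of the hypoxia response element. Windows of 250 bases upstream of the start were taken from RefSeq (GRCm38.p6), and 30 of the 32 genes had an entry, Slc16a7 and Slc2a3 being the others. The core acgtg, searched on both strands as ACGTG or CACGT, was found in 19 of the 44 windows of members (43.2%) and in 16.6% of all 32851 windows. The windows of Hk3 (chr13:55021386-55021635, minus strand) and Slc16a3 (chr11:120948817-120949066, plus strand) are shown because these were the 2 members high in EAE, with matches in capitals, 1 in Hk3 and 2 in Slc16a3.
Hk3: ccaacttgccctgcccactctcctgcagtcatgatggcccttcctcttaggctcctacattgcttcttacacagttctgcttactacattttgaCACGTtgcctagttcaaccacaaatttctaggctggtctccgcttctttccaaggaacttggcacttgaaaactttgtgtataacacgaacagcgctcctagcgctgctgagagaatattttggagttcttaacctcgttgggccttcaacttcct
Slc16a3: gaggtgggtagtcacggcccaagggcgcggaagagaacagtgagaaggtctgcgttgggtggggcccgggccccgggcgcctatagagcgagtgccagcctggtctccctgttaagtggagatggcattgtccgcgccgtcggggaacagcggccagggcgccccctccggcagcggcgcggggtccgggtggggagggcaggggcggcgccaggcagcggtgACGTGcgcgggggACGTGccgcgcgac
A match describes the sequence and shows no binding.

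For 21 of the 32 genes several probes passed the filter, and they did not always have the same sign. All kept probes of a gene had the same sign for 12 of the 21 in EAE against naive, and for 11 in chronic EAE against naive. Pfkl and Gbe1, lower in chronic EAE than in EAE on the probes used here (-0.51 and -0.66), were higher by 0.78 and 0.63 when probes were averaged. For Pfkl the second probe, of a separate cDNA, had levels of -0.18 in Cx47-deficient and 0.14 in WT chronic EAE and of -1.58 in Cx47-deficient and -2.33 in WT naive mice. For Pfkp 3 dimmer probes of other transcripts were higher in chronic EAE by 1.07 to 1.35 and the 2 brightest by 0.08 and 0.19.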

How the data were processed

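Per the labels, TRIzol and a column kit gave total RNA, which was amplified from low input and labelled with Cy3, 1 array for each of 8 groups. The authors deposited scanner output with a background-subtracted intensity per spot. Feature Extraction is version 10.7.1.1 in the file headers and 9.5.1.1 in the submitters' processing notes. A table of the authors' processed intensity values, quantile normalized as far as the values show, was deposited too and used only as an alternative. The log2 processed signal was centred on each array's percentile 75, control and outlier spots (38 to 73 an array) were left out, and spots of a probe were averaged. A gene was tested if its brightest probe reached the scanner software's well-above-background flag on 2 or more of 8 arrays. limma 3.58.1 in R 4.3.3 fitted condition plus genotype over all 8 arrays (3 residual and 2.12 prior degrees of freedom), with Benjamini-Hochberg adjustment over 25905 genes and calls at 0.05. The number of arrays limits the precision. The fit was tested on simulated data. Upstream and downstream probes of a RefSeq transcript were compared after the data had been seen. The members and the lists were chosen with earlier results of these data known. All 32 members are named; of other lists, up to 4 called genes, or else the 2 with the largest EAE difference. One gene of the other glycolysis list is not reported here. Of the members' accessions 27 were found in RefSeq, 26 with the same symbol. Alternatives were quantile normalization, median centring, normexp (offset 50), the authors' values, other filters, the mean of probes, slide 1 alone, other folds and leaving out each array.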

Additional observations from a re-analysis of the deposited data

Results flagged for a closer look

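With 1 array in each group no array could be set against others of its group. One member changed in opposite directions in the genotypes by at least 0.5 on the log2 scale in each: Slc16a3, the lactate exporter, was 1.69 higher in iguratimod-treated EAE than in naive mice among Cx47-deficient arrays, and its difference was -0.54 among WT arrays. The difference between the genotypes was not tested. It rests on 4 arrays and 1 probe. For 18 of 32 members the sign of this comparison was opposite in the genotypes, mostly by small amounts.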

How the results depend on the processing

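Counts of genes called moved with the processing. Over all 32 members, 21 to 32 kept their sign in a comparison under other normalizations, filters and probe choices. The fewest did so with median centring in iguratimod-treated EAE against naive. Followed one by one were 35 member differences, those with an unadjusted p under 0.05 or at least 2-fold in the main fit. The iguratimod differences of Hk3 and Slc16a3 were added to these. Of the 35 member differences followed, 33 kept direction and side of the threshold under quantile normalization, 29 under median centring, 20 under normexp, 33 with the authors' values, 34 without a filter, 30 with a filter on all 8 arrays and 32 with the mean of probes; all but 2 of the others kept their direction, and the causes were not tested. Those 2 were Gbe1 (0.63) and Pfkl (0.78) in chronic against acute EAE with the mean of probes, where the third Gbe1 probe and the second Pfkl probe had differences above 0; without the WT iguratimod array Slc16a3 turned to 0.12 in treated against untreated EAE, and over the arrays left out it ran from -1.58 to 0.12.
Genes called in EAE against naive numbered 38 with quantile normalization and with the authors' values, 360 with median centring, 202 with normexp, 15 without a filter, 199 with a filter on all 8 arrays and 0 on slide 1 alone, and 0 to 11 with an array left out. The members called were 1 with median centring, normexp and the filter on all 8 arrays. In iguratimod-treated EAE against naive, quantile normalization, the authors' values and slide 1 alone gave 0 genes, median centring 238, normexp 51, the filter on all 8 arrays 47 and the mean of probes 10, and 0 with any array left out.
In chronic EAE against naive, genes called were 19 with quantile normalization, 1212 with median centring, 3901 with normexp, 12 with the authors' values, 25 without a filter, 1811 with the filter on all 8 arrays and 1 to 3 with an array left out; members called were 0 with quantile normalization, the authors' values, no filter or any array left out, 2 with the filter on all 8 arrays and 7 with normexp. In chronic against acute EAE, genes called were 6947 with median centring, 7578 with normexp, 849 without a filter and 1 to 2442 with an array left out; members called were 7 with median centring, 10 with normexp, 5 with the filter on all 8 arrays, 4 with the mean of probes and 0 to 2 with an array left out. Median centring moved the median of all genes to -0.34 and -0.41 in these comparisons, and that of the members to -0.79 and -0.90. In the fit, chronic against acute EAE called 14.5% of all genes and 6.25% of the members. For the filter on all 8 arrays and the mean of probes the share of all genes called is not given here. The member counts under those settings are therefore no result about the members.
Between single arrays, genes at 2-fold with normexp were 844 in naive mice, 381 in EAE, 316 under iguratimod and 151 in the chronic phase; with the filter on all 8 arrays 1050, 665 and 348 in the 3 EAE conditions; at 1.5-fold 6264, 4342, 3359 and 3135; at 3-fold 742, 511, 199 and 171. Members at that size were 1 in naive mice with quantile normalization, median centring and the authors' values, and 0 with normexp and at 3-fold. In EAE with iguratimod they were 0 with normexp and at 3-fold and 2 at 1.5-fold, where EAE and chronic EAE had 1 each. Where leaving out an array leaves a condition with 1 array, that array is assumed to vary like the others. No paired analysis was possible because each group has 1 array. Slide 1 alone gives no chronic comparison. The precision is limited by the number of arrays, and dim probes lie closer to background.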
